A study of Mus musculus with 12 samples.

Results

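The replication-dependent histone genes were taken as the protein-coding genes whose GENCODE M21 symbol begins with Hist1h, Hist2h, Hist3h or Hist4h. The annotation holds 67 such genes, and 65 of them have an Ensembl ID among the 48672 gene IDs of the count data. Hist1h2bm and Hist1h2bh have no such ID and were not analysed here. The 65 genes comprise 6 of class H1, 18 of H2A, 16 of H2B, 12 of H3 and 13 of H4. Of these, 52 lie in the Hist1 cluster on chromosome 13, 10 in Hist2 on chromosome 3, 2 in Hist3 on chromosome 11 and 1 is Hist4h4 on chromosome 6 (mouse build mm10). The low-count filter passed 59 genes. The 6 genes that did not pass were Hist1h1t, Hist1h2aa, Hist2h2aa1, Hist2h2bb, Hist2h3c1 and Hist4h4, and 3 of these (Hist1h2aa, Hist2h2aa1 and Hist2h3c1) had no count in any library.

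The cells were invariant natural killer T (iNKT) cells, which recognise lipid antigens, from the thymus of C57Bl/6J mice aged 4 to 5 weeks. RNA was sequenced from pools of 4 to 7 mice. The 4 groups of 3 libraries were WT ST0, WT ST1, Bcl6KO ST0 and Bcl6KO ST1. ST0 (stage 0) cells were sorted as tetramer and TCRb positive, CD24 positive and CD44 negative, and ST1 (stage 1) cells were CD24 negative and CD44 negative. Bcl6KO stands for CDCre;Bcl6F/F, a Cre transgene with floxed alleles of Bcl6, a transcriptional repressor; the labels do not give the promoter of the transgene, and WT mice are not described further. Nothing in the labels shows that each library had a pool of its own. The p-values therefore measure the spread between these libraries, which may be technical in part.

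Histone proteins package DNA. H2A, H2B, H3 and H4 form the core of the nucleosome and H1 binds the linker DNA between nucleosomes. Replication-dependent histone genes are transcribed mainly in S phase from clusters of many copies, and their mRNAs end in a conserved stem-loop bound by SLBP instead of a poly(A) tail. Such mRNAs are a common readout of how many cells in a population replicate DNA. Whether these libraries were made by selection for poly(A) tails is not described here. How fully the counts below hold mRNAs without such a tail was not tested. In bulk libraries, a lower share of cells in S phase and less histone mRNA per cell cannot be told apart.

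The stem-loop was searched in the 100 bases after the stop codon, on the coding strand, as the arm GGNNNT, the 4-base loop TTTN and the arm ANNNCC in a row, where N is any base and the 6-base arms pair fully. It was found in 42 of 65 genes, between 21 and 58 bases after the stop codon. Of the 23 genes without a match, 15 have gene models that end within 2 bases of the stop codon, so their annotated transcripts cannot hold it. These sequences show 3 of the 6 forms found, with the stem-loop in capitals, read from the GENCODE M21 transcripts, which are on the build of the counts (mm10).

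Hist1h2ad, chr13:23574895-23574910, plus strand: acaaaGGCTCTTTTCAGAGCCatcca
Hist1h2bk, chr13:22036300-22036315, plus strand: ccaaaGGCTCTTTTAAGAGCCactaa
Hist1h1e, chr13:23621782-23621797, minus strand: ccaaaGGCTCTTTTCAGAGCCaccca
Hist1h4d, chr13:23581950-23581965, plus strand: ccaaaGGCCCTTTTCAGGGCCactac

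The form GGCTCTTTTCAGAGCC was found in 24 genes of classes H1, H2A, H2B and H3 and in no H4 gene. All 11 H4 genes with a stem-loop had another stem, and 7 of them had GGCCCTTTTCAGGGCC.

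The coding sequences are close to copies of each other, which bears on every value below. The next sequences are coding bases 246 to 335 of H2A genes, shown because they cover the same part of the gene and differ little. Capitals mark bases that differ from Hist1h2ad.

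Hist1h2ad: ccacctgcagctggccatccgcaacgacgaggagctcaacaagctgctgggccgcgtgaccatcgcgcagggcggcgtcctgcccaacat
Hist1h2ak: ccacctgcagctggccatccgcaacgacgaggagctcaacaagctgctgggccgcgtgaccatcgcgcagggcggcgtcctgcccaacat
Hist1h2af: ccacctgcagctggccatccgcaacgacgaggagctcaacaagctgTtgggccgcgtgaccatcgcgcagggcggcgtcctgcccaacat
Hist2h2aa2: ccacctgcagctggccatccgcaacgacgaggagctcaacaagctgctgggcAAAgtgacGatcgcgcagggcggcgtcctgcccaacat

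Over the whole coding sequence of 393 bases, Hist1h2ak differed from Hist1h2ad at 11 bases, Hist1h2af at 5 and Hist2h2aa2 at 35. Genes were linked where at least 25% of their 50-base coding windows occurred in each other. This gave 6 groups that hold 51 genes, among them 13 Hist1 H2B genes, 12 Hist1 H2A genes, 11 Hist1 H4 genes and 9 Hist1 H3 genes. The other 14 genes stood alone.

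In most libraries, most of the 12 linked H2A genes had nearly the same count, and other linked groups spread more widely. An exception was library 3 of those labelled Bcl6KO ST0, where the 12 linked H2A genes ran from 232 to 731 counts, with a median of 420. In library 2 of those labelled Bcl6KO ST0, the 12 linked H2A genes had a median of 2372.5 counts and at most 2500, while Hist1h2af had 1186 and Hist1h2ak 1265. In the same library the 13 linked H2B genes ran from 140 counts (Hist1h2ba) to 553 (Hist1h2bf). In WT ST0 library 1, Hist1h4d had 196 counts where Hist1h4m, of the same linked group, had 5. Hist1h2ao and Hist1h2ap have the same coding sequence, and their counts were equal in 6 of 12 libraries. Hist1h4m and Hist1h4n, also identical, were equal in 5 libraries, and so were Hist1h2bq and Hist1h2br. Not all identical copies had like counts. Hist2h2aa1 had no count in any library, where Hist2h2aa2, with the same coding sequence, had 10 to 909. Hist2h3c1 had none either, where its identical copy Hist2h3c2 had 10 to 419. Both genes without counts overlap Gm20634, a gene model on the same strand, and whether this set their counts was not tested. The values of linked genes are therefore uncertain gene by gene, they are not separate measurements, and sums over them may hold the same reads more than once. Sums are for this reason also given with the mean of each linked group counted once. These means include copies without a count.

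Other annotated genes overlap exonic bases of 24 histone genes. For 17 of them the overlapping model is a miRNA gene on the opposite strand. Gm44484, a miRNA model within Hist1h2ab, had 2340 counts in library 2 labelled Bcl6KO ST0, where Hist1h2ab had 2500, and 25 counts in WT ST0 library 1, where Hist1h2ab had 34. Not every such model ran beside its histone gene: Gm47311, which overlaps Hist2h2aa2, had no count in any library, where Hist2h2aa2 had 10 to 909. Hist1h1e shares 25.7% of its exonic bases with Hist1h2be, and all exonic bases of Hist2h3b lie under an antisense gene. Whether counting used strand is not given in the sources used here.

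**Figure D1:**
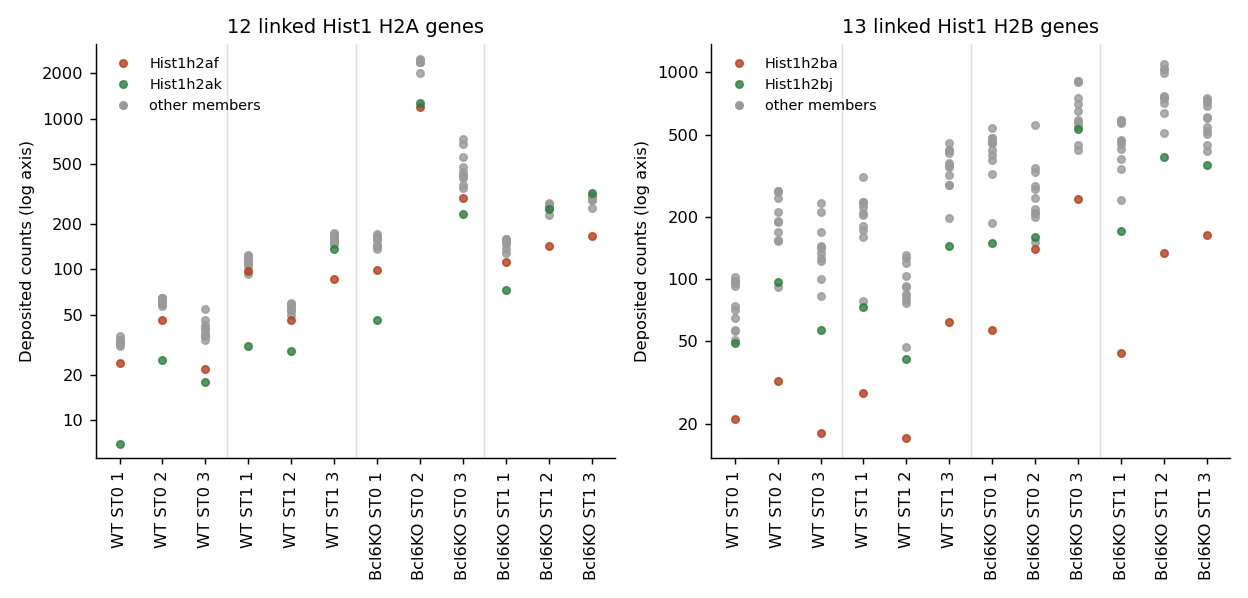
Deposited counts (log axis) in each of the 12 libraries of the 12 linked Hist1 H2A genes (left) and the 13 linked Hist1 H2B genes (right); each point is 1 gene. Most of the H2A genes lie almost on top of each other, except in Bcl6KO ST0 library 3, where the 12 genes ran from 232 to 731 counts. Hist1h2af at 1186 and Hist1h2ak at 1265 lie below the median of 2372.5 in Bcl6KO ST0 library 2. In most libraries the H2B genes spread more widely.

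Library totals lay between 4129919 and 8038717 counts. The libraries labelled Bcl6KO ST0 detected the fewest genes (16287 ± 1437, SD, n = 3, against 19770 ± 1649 in WT ST0), and the single gene Sp100 took 10.8% to 23.9% of their counts, against at most 5.03% in the other libraries. Bcl6 itself was at 371, 215 and 274 CPM in WT ST0, 508, 654 and 649 in Bcl6KO ST0, at 8.72, 4.13 and 8.57 in WT ST1 and at 14.6, 55.8 and 25 in Bcl6KO ST1. The targeted gene was thus counted higher, not lower, in every library labelled Bcl6KO at its stage. Gene counts include bases outside the floxed part, so this value does not check the deletion, and every genotype comparison below rests on the labels. CPM, the counts divided by a library's total and brought to a common total, are on totals scaled by TMM, edgeR's trimmed mean of M-values.

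Summed over all 65 genes, histone levels were higher in each of the 6 libraries labelled Bcl6KO than in each of the 6 WT libraries. The sums were 549, 921 and 608 CPM in WT ST0 and 1194, 600 and 1598 CPM in WT ST1. They were 1732, 6430 and 3360 CPM in the libraries labelled Bcl6KO ST0 and 2059, 3444 and 2670 CPM in those labelled Bcl6KO ST1. WT ST1 library 2 lay among the WT ST0 libraries, and Bcl6KO ST0 library 2 stood highest of all. On unscaled totals the genotypes still did not overlap within a stage, but the lowest sum labelled Bcl6KO ST0 (1568 CPM) lay below the highest of WT ST1 (1705 CPM).

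The mean of the groups labelled Bcl6KO was 5.54 times that of WT at ST0 and 2.41 times at ST1. Without Bcl6KO ST0 library 2 the ratio at ST0 was 3.67. With each linked group counted once, the sums were 162 ± 41.2 CPM in WT ST0, 232 ± 89.4 in WT ST1, 520 ± 231 in Bcl6KO ST0 and 501 ± 69.5 in Bcl6KO ST1 (SD, n = 3), a ratio of 3.22 at ST0 and 2.16 at ST1. At each stage these values too did not overlap between the genotypes, with at most 203 CPM in WT ST0 against at least 299, and at most 284 CPM in WT ST1 against at least 454. A sum over genes chosen with earlier results known is a description here, with no test.

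**Figure D2:**
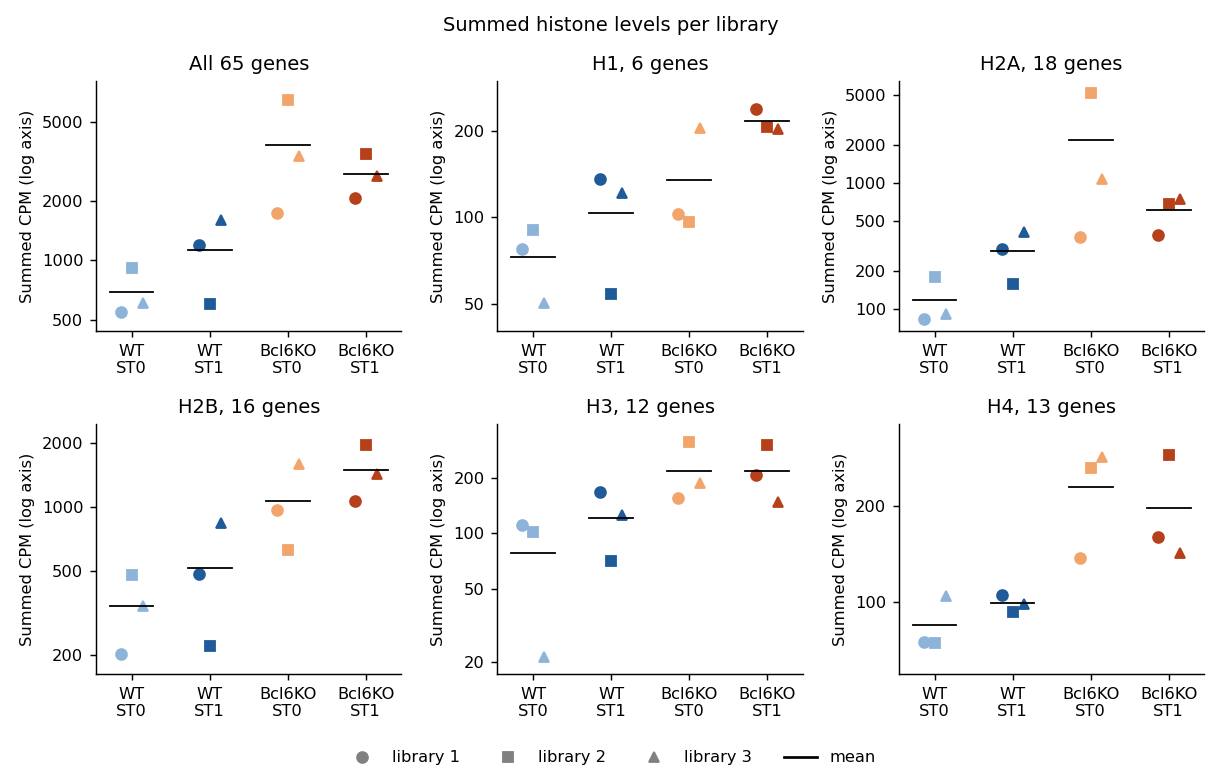
Summed CPM (log axis) of all 65 histone genes and of each class, by group; each marker is 1 library (circle, square and triangle for libraries 1, 2 and 3) and the line is the mean. The libraries labelled Bcl6KO lie above WT in the sum over all genes, with 1732 CPM as their lowest and 1598 CPM as the highest WT value, and Bcl6KO ST0 library 2 stands apart in H2A at 5130 CPM.

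The question of the genotype comparison at ST0 was which genes differ between the labelled genotypes in CD24 positive cells. Of the 59 histone genes tested, 56 had a positive log2 fold change, against 49.6% of all 15704 genes, and the median was 1.81, against -0.01 for all genes. Counted with 1 value per linked group or single gene, 13 of 16 were positive, with a median of 1.36. No histone gene passed edgeR's quasi-likelihood test with Benjamini-Hochberg adjustment over all genes, which called 0.0191% of genes higher and 0% lower. The lowest adjusted p of a histone gene was 0.100. At an unadjusted p under 0.05, 32 histone genes were higher and none lower, where 5.93% of all genes were higher and 8.77% lower. The 32 include all 12 linked Hist1 H2A genes and all 13 linked Hist1 H2B genes, which are not separate measurements. DESeq2 called 21 histone genes higher and none lower, where it called 2.27% of all genes higher and 3.78% lower. These were the 12 linked Hist1 H2A genes, 7 of the linked Hist1 H2B genes, Hist1h1b and Hist1h4b. The 3 libraries of each genotype did not overlap for 41 histone genes, each higher in those labelled Bcl6KO, where 4.67% of all genes were so.

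At ST1, 57 of 59 histone genes had a positive log2 fold change in the libraries labelled Bcl6KO (51.1% of all genes), with a median of 1.10 against 0.02 for all genes. Counted with 1 value per linked group or single gene, 15 of 16 were positive, with a median of 1.06. No gene at all passed edgeR's test (0% of genes in either direction), and the adjusted p of every histone gene was 1. At an unadjusted p under 0.05, 14 histone genes were higher and none lower (1.45% of all genes were higher), and DESeq2 called 0 histone genes where it called 0.102% of genes higher and 0.0255% lower. The libraries did not overlap for 26 histone genes, all higher in those labelled Bcl6KO, where 5.87% of all genes were so. These 2 comparisons share no library, but they come from the same fit with a shared estimate of spread. The labels also do not show whether both stages were sorted from the same pools of mice.

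Averaged over the stages, 58 of 59 histone genes had a positive genotype effect (49.8% of all genes), with a median log2 difference of 1.51. Of the 16 linked groups or single genes, 15 were positive, with a median of 1.10. None passed edgeR's test, which called 0.00637% of genes higher, and the lowest adjusted p was 0.141. At an unadjusted p under 0.05 there were 42 histone genes higher and none lower, where 4.57% of all genes were higher and 6.34% lower. DESeq2 called 26 of them higher, where it called 1.24% of all genes higher and 1.62% lower. The exception to the positive direction was Hist3h2ba, an H2B gene of the Hist3 cluster, whose log2 difference was -0.41 ± 1.57 (SE).

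**Figure D3:**
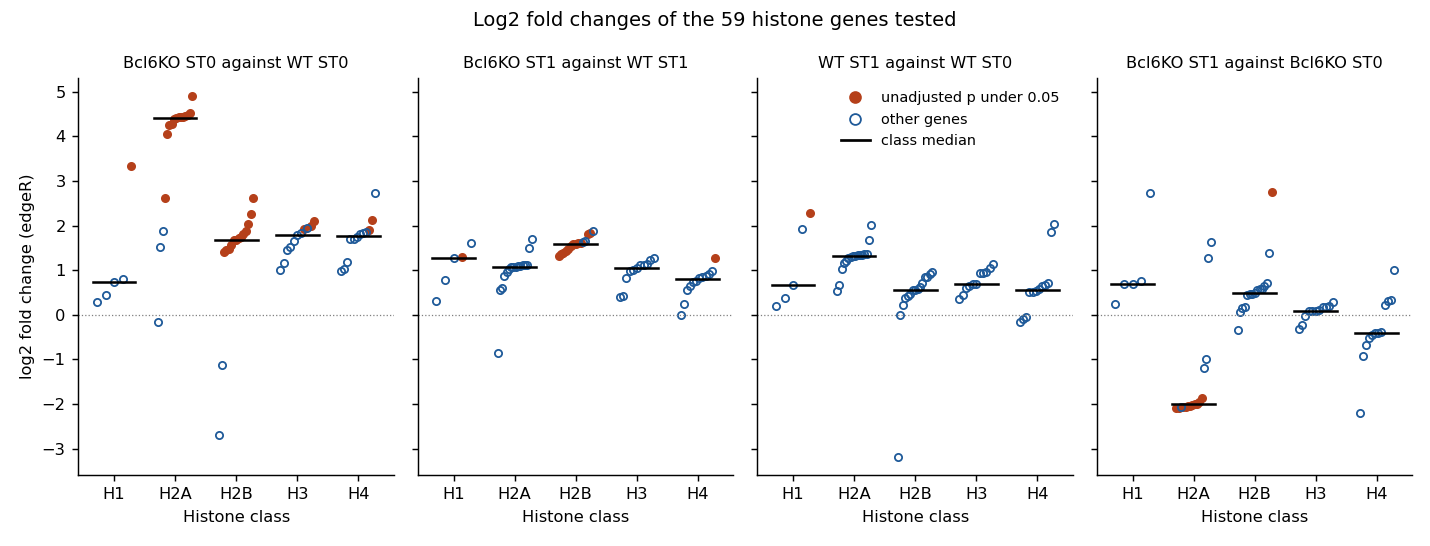
Log2 fold changes from edgeR of the 59 histone genes tested, by class, in the genotype comparison at each stage and the stage comparison in each genotype; each point is 1 gene, filled where the unadjusted p was under 0.05, and the line is the class median. No gene passed after adjustment; the H2A genes stand at a median of 4.40 at ST0 between genotypes and at -2.004 between the stages of Bcl6KO.

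H1 histones are the linker histones, which compact chromatin between nucleosomes. Their sum was 72.8 ± 20.5 CPM in WT ST0, 104 ± 43.9 in WT ST1, 134 ± 60.9 in Bcl6KO ST0 and 216 ± 19.5 in Bcl6KO ST1 (SD, n = 3). At ST0 the genotypes were nearly touching, with 90.5 CPM as the highest WT value and 96.2 as the lowest labelled Bcl6KO, and they overlapped when totals were left unscaled. At ST1 they stood apart, at most 137 CPM in WT against at least 203.

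Per kilobase of annotated exon, Hist1h1e was the highest H1 gene at 34.2 CPM per kilobase over the 12 libraries, then Hist1h1b at 26.4 and Hist1h1c at 16.1. Hist1h1e was at 45.1, 41.7 and 31.9 CPM in WT ST0, 54.9, 29.3 and 52.7 in WT ST1, 56.4, 18.3 and 124 in Bcl6KO ST0 and 124, 103 and 112 in Bcl6KO ST1. Its genotypes overlapped at ST0 and not at ST1, where the log2 fold change was 1.31 ± 0.57 (SE, edgeR adjusted p = 1). Hist1h1b had the lowest levels in WT ST0, at 0.59, 7.05 and 0.78 CPM. It was at 20.8, 6.48 and 14.1 CPM in WT ST1, 17.7, 43.6 and 23.9 in Bcl6KO ST0 and 42.7, 37.2 and 20.9 in Bcl6KO ST1. Its log2 fold change was 3.33 ± 0.99 between genotypes at ST0 (edgeR adjusted p = 0.182) and 2.29 ± 0.96 between the stages of WT (adjusted p = 0.511). Hist1h1b was the single histone gene with an unadjusted p under 0.05 in the WT stage comparison.

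H1 genes differed among themselves in the libraries labelled Bcl6KO ST0. Library 2, the highest of the 3 for Hist1h1b, was the lowest for Hist1h1e. Hist1h1a was at 0 CPM in 2 of those libraries, where a count of 0 allows at most 0.596 CPM, and at 5.34, 5.54 and 10.3 CPM in Bcl6KO ST1.

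H2A histones pair with H2B in the nucleosome. Their sum was 84.1, 179 and 92.8 CPM in WT ST0 and 300, 160 and 412 CPM in WT ST1. It was 375, 5130 and 1081 CPM in the libraries labelled Bcl6KO ST0 and 392, 685 and 748 CPM in those labelled Bcl6KO ST1. Bcl6KO ST0 library 2 held 79.8% of its histone sum in H2A, against 15.3% to 32.2% in the other libraries. The ratio of genotypes was 18.5 at ST0, 6.14 without that library, and 2.09 at ST1, where the values overlapped.

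In Bcl6KO ST0 library 2 each of the 12 linked Hist1 H2A genes stood at 224 to 472 CPM. Hist1h2ao, with the lowest unadjusted p of any histone gene at ST0, was at 6.33, 12.7 and 8.03 CPM in WT ST0 and 28.6, 447 and 143 CPM in the libraries labelled Bcl6KO ST0. It was at 22.2, 10.6 and 35.3 CPM in WT ST1 and 31.4, 54.4 and 61.4 CPM in Bcl6KO ST1. Its genotypes did not overlap at ST0 and overlapped at ST1. The log2 fold change was 4.51 ± 0.86 (SE) at ST0 (edgeR adjusted p = 0.100) and 1.11 ± 0.76 at ST1 (adjusted p = 1), and the difference between these effects, -3.40 ± 1.09, had an adjusted p of 0.530. Hist1h2ap and Hist1h2ad, as genes linked to it, had nearly the same log2 fold change at ST0 (4.49 and 4.44). In Bcl6KO ST0 library 3, however, Hist1h2ad was at 93.3 CPM where Hist1h2ao was at 143. Without Bcl6KO ST0 library 1, the lowest of that group, all 12 linked H2A genes passed edgeR's test at ST0. As single libraries were left out, calls among all genes ranged from 0 to 133 in this comparison. Of the edgeR settings run with all libraries, the 12 linked H2A genes passed only without the low-count filter. The share of all genes called in that setting is not given here. They also passed DESeq2's test, which called 2.27% of all genes higher.

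The remaining H2A genes moved less evenly. Hist2h2aa2 was at 2.77, 30.2 and 1.96 CPM in WT ST0 and 19.1, 171 and 23.9 CPM in the libraries labelled Bcl6KO ST0, where WT library 2 overlapped them. Hist2h2ac was at 0.99, 5.88 and 2.74 CPM in WT ST0, 11.9, 6.68 and 12.2 in WT ST1, 18.5, 5.47 and 3.92 in Bcl6KO ST0 and 11.5, 43.3 and 32 in Bcl6KO ST1. It had the lowest unadjusted p among histone genes for the stage effect averaged over genotypes, with a log2 difference of 1.66 ± 0.66 (SE, edgeR adjusted p = 0.201). Hist3h2a was at 25.3 CPM in Bcl6KO ST0 library 2 and at most 7.66 CPM in the other 11 libraries.

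H2B histones gave the largest share of the histone sum in 11 of 12 libraries, at 36.9% to 57.0%, and 9.78% in Bcl6KO ST0 library 2. Their sum was 203, 475 and 339 CPM in WT ST0 and 484, 222 and 840 CPM in WT ST1. It was 962, 629 and 1601 CPM in the libraries labelled Bcl6KO ST0 and 1063, 1964 and 1430 CPM in those labelled Bcl6KO ST1. The genotype ratio was 3.14 at ST0 and 2.88 at ST1, with no overlap at either stage; on unscaled totals the values overlapped at ST0.

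Hist1h2bl had the highest level per kilobase of all histone genes, 233 CPM per kilobase, followed within the class by Hist1h2bk at 179 and Hist1h2bn at 163. Its gene model holds only the coding bases, which raises a value per kilobase against genes with longer models. Hist1h2bl was at 20.2, 51.9 and 28 CPM in WT ST0, 61.7, 25.7 and 92.9 in WT ST1, 107, 65.1 and 146 in Bcl6KO ST0 and 113, 217 and 137 in Bcl6KO ST1. The genotypes did not overlap at either stage. The log2 fold change between them was 1.67 ± 0.54 (SE) at ST0 (edgeR adjusted p = 0.208) and 1.37 ± 0.53 at ST1 (adjusted p = 1).

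At ST1, 12 of the 15 H2B genes tested were at an unadjusted p under 0.05, and the same 12 were without overlap, where 1.45% of all genes were higher at that p and 5.87% were higher without overlap. They are the group of 13 linked genes without Hist1h2ba, so these are not 12 separate results. Hist1h2bb, at the lowest unadjusted p among them, was at 15.5, 9.23 and 40.2 CPM in WT ST1 and 47.4, 100.5 and 82.6 CPM in the libraries labelled Bcl6KO ST1, a log2 fold change of 1.83 ± 0.66 (edgeR adjusted p = 1). Hist1h2bk and Hist1h2bp followed with 1.61 ± 0.58 and 1.61 ± 0.60.

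Of the H2B genes outside the linked group, Hist2h2be and Hist3h2ba were tested. Unlike the linked genes, they had a negative log2 fold change between genotypes at ST0. At ST1 it was positive, at 1.64 ± 1.21 and 1.87 ± 2.18 (SE). Hist2h2be was at 18.2, 15.3 and 0.39 CPM in WT ST0, 18.8, 6.09 and 8.98 in WT ST1, 11.7, 1.13 and 2.74 in Bcl6KO ST0 and 9.88, 69.6 and 26 in Bcl6KO ST1. It was the histone gene with the lowest unadjusted p for a higher level at ST1 in Bcl6KO, with a log2 fold change of 2.75 ± 1.26 (edgeR adjusted p = 0.300), and was lower by label at ST0 (-1.12 ± 1.203, adjusted p = 0.724). Hist3h2ba was at or below 8.62 CPM in every library and at 0 in 6 of them.

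H3 histones carry many of the modified lysines of chromatin. Their sum was 77.7 ± 49.0 CPM in WT ST0, 122 ± 48.5 in WT ST1, 218 ± 83.4 in Bcl6KO ST0 and 218 ± 77.1 in Bcl6KO ST1 (SD, n = 3), with no overlap between genotypes at ST0 (at most 110 against at least 155) and overlap at ST1. WT ST0 library 3 was the lowest, at 21.3 CPM.

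Per kilobase, Hist2h3b led the class at 53.2 CPM, then Hist2h3c2 at 30.2 and Hist1h3h at 28.2. Hist2h3b was at 30.9, 15.7 and 2.15 CPM in WT ST0, 37.3, 11.2 and 18 in WT ST1, 20.1, 67.2 and 22.1 in Bcl6KO ST0 and 38.7, 20.4 and 28.2 in Bcl6KO ST1, with overlap between genotypes at both stages. Hist1h3h, linked to the other Hist1 H3 genes, was at 3.96, 6.86 and 1.37 CPM in WT ST0 and 12.5, 17.7 and 16.5 CPM in the libraries labelled Bcl6KO ST0, with no overlap. Its log2 fold change was 1.93 ± 0.87 (SE) at ST0 (edgeR adjusted p = 0.327) and 1.26 ± 0.85 at ST1 (adjusted p = 1).

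H4 histones had, of the 5 classes, the least spread relative to the mean in both WT groups: 84.7 ± 17.2 CPM in WT ST0 and 99.2 ± 6.00 in WT ST1 (SD, n = 3), against 228 ± 79.3 in Bcl6KO ST0 and 196 ± 79.4 in Bcl6KO ST1. The genotypes did not overlap at ST0 (at most 105 against at least 138 CPM) or at ST1 (at most 105 against at least 142 CPM), also on unscaled totals.

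Hist1h4d stood above the other H4 genes at 58.1 CPM per kilobase, against 27.7 for Hist1h4k and 22.9 for Hist1h4b. It was at 38.8, 47.0 and 42.5 CPM in WT ST0, 48.8, 31.2 and 40.6 in WT ST1, 33.0, 124 and 95.2 in Bcl6KO ST0 and 84.2, 144 and 64.4 in Bcl6KO ST1. The genotypes overlapped at ST0 through 1 library and not at ST1, where the log2 fold change was 1.28 ± 0.51 (SE, edgeR adjusted p = 1). Hist1h4m and Hist1h4n, whose coding sequences are the same, were at most 4.91 CPM in every library. Hist2h4, which stands alone in sequence, was at 0.59, 2.94 and 7.64 CPM in WT ST0, 29.996, 25.8 and 18.2 in Bcl6KO ST0, and at most 8.70 CPM at ST1 in either genotype.

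The stage comparison asked what differs between CD24 positive and CD24 negative cells. In WT, 55 of 59 histone genes had a positive log2 fold change at ST1 (50% of all genes), with a median of 0.69 against 0.00 for all genes. None passed edgeR's test, which called 0.07% of genes higher and 0.363% lower, and DESeq2 called none where it called 0.942% of genes higher and 1.45% lower. A single histone gene was higher at an unadjusted p under 0.05 (4.15% of all genes) and none lower (4.25%). The libraries did not overlap for 7 of 59 histone genes, each higher at ST1, where 12.5% of all genes were so, a share near theirs. The WT sum was 1.63 times as high at ST1 as at ST0, and the ranges overlapped.

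Between the stages labelled Bcl6KO, the classes went different ways. The median over the 59 genes was 0.09, with 33 positive (50.5% of all genes), and the class medians were 0.69 for H1, -2.004 for H2A, 0.49 for H2B, 0.09 for H3 and -0.40 for H4. On unscaled totals the H4 median changed sign to 0.08. No histone gene passed edgeR's test (0.42% of genes were called higher and 0.255% lower), and DESeq2 called none (5.32% higher and 3.01% lower). At an unadjusted p under 0.05, 11 H2A genes were lower and Hist2h2be was higher, where 6.43% of all genes were lower and 9.98% higher. Hist1h2ao had a log2 fold change of -2.07 ± 0.77 (SE, edgeR adjusted p = 0.201). The ratio of the ST1 to the ST0 sum was 0.71 and 1.07 without Bcl6KO ST0 library 2, and for H2A alone 0.28 and 0.84.

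Averaged over genotypes, the stage effect had a median of 0.34 over the histone genes, with 44 of 59 positive (51.2% of all genes). None passed edgeR's test, which called 2.04% of genes higher and 1.42% lower, or DESeq2's, which called 5.3% and 4.22%; at an unadjusted p under 0.05 there were 2 higher, Hist2h2ac and Hist1h2be (10.3% of all genes), and none lower (7.98%). The difference between the genotype effects of ST1 and ST0 was negative for 48 of 59 genes and positive for 11 (51.8% of all genes were positive). With 1 value per linked group or single gene, 9 of 16 were negative and 7 positive, and on unscaled totals 22 of the 59 genes were positive. None passed edgeR's test, which called 0% of genes, or DESeq2's, which called 0.637% higher and 0.191% lower. The 12 with an unadjusted p under 0.05 were the linked Hist1 H2A genes, all negative, where 2.52% of all genes were lower. The genotype effects at the 2 stages were therefore not shown to differ.

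Other genes of the cell cycle stood at higher levels in the same libraries. The summed level of 20 mitosis genes was 888, 865 and 703 CPM in WT ST0, 2314, 1043 and 2422 in WT ST1, 2888, 3821 and 3890 in Bcl6KO ST0 and 2819, 5094 and 4380 in Bcl6KO ST1. As for the histone sum on TMM-scaled totals, all 6 libraries labelled Bcl6KO lay above all 6 WT libraries and WT ST1 library 2 was the lowest of its group. Unscaled totals were not compared for the mitosis sum. All 20 had a positive log2 fold change between genotypes at ST0, with a median of 2.24, and 18 of 20 at ST1, with a median of 0.95. None passed edgeR's test in any of the 7 contrasts. At an unadjusted p under 0.05, 14 were higher at ST0 (5.93% of all genes) and 3 at ST1 (1.45%).

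Mki67, a proliferation marker, was at 439, 345 and 336 CPM in WT ST0, 1160, 440 and 1295 in WT ST1, 1484, 2239 and 1785 in Bcl6KO ST0 and 1287, 3161 and 2342 in Bcl6KO ST1. Mki67 alone thus made up a large part of the mitosis sum in every library. The log2 fold change of Mki67 between genotypes was 2.30 at ST0 (edgeR adjusted p = 0.100) and 1.23 at ST1 (adjusted p = 1). Top2a, a topoisomerase that untangles DNA for mitosis, was at 90.9 ± 39.4 CPM in WT ST0 and 415 ± 73.1 in Bcl6KO ST0, at an adjusted p of 0.094. Cdk1, the mitotic kinase, was at 10.7 ± 1.95 and 73.9 ± 66.9 CPM in these groups, and Kif23, a kinesin of cytokinesis, at 10.3 ± 7.75 and 19.0 ± 9.12 (SD, n = 3).

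The 32 genes of DNA replication and S phase were less far apart than the histone genes in median. Their median log2 fold change between genotypes was 0.88 at ST0 (30 of 32 positive) and 0.42 at ST1 (26 positive), and between the stages of WT 0.61 (28 positive); none passed edgeR's test in any of the 7 contrasts. Their sum was 1515 ± 139 CPM in WT ST0, 2161 ± 637 in WT ST1, 2817 ± 916 in Bcl6KO ST0 and 3005 ± 437 in Bcl6KO ST1 (SD, n = 3). The order of libraries was not that of the histone sum in every group. In Bcl6KO ST0 this sum was 2580, 2042 and 3827 CPM, so library 2, the highest in histone genes, was the lowest here. Pole, the catalytic subunit of the leading strand polymerase, was at 21.4 ± 9.38 CPM in WT ST0, 57.8 ± 9.42 in WT ST1, 51.5 ± 9.51 in Bcl6KO ST0 and 107.8 ± 34.4 in Bcl6KO ST1. Tk1, which makes thymidine monophosphate, was at 19.3 ± 8.19, 59.3 ± 3.14, 46.2 ± 12.7 and 63.1 ± 36.0 CPM, and Mcm7, a subunit of the replicative helicase, at 93.4 ± 5.78, 81.8 ± 28.2, 66.4 ± 24.4 and 111 ± 24.1 CPM in the same order. Histone genes and these lists were chosen with earlier results known, and the part of cycling cells in the histone levels was not tested.

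**Figure D4:**
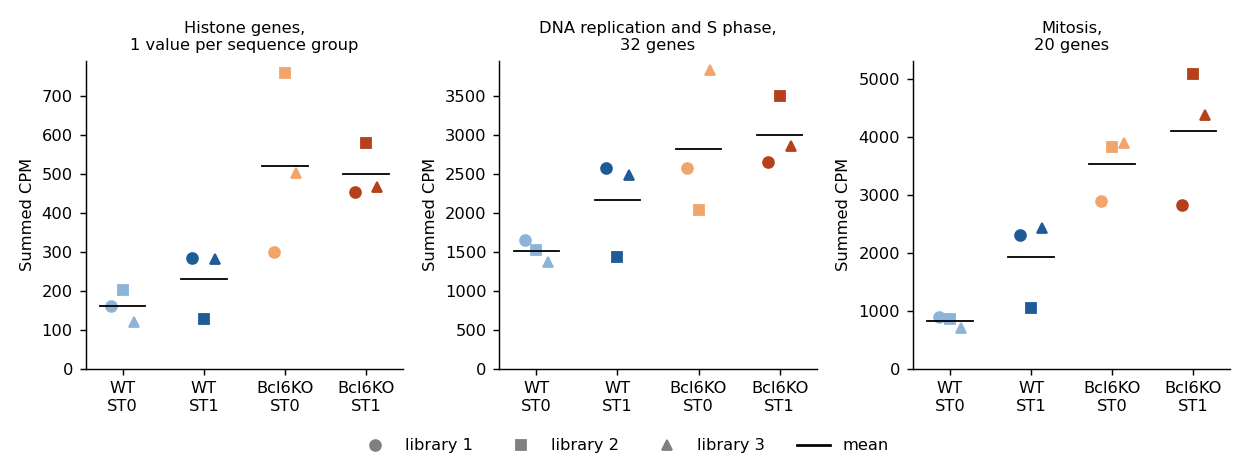
Summed CPM per library of the histone genes with each linked group counted once (left), of 32 genes of DNA replication and S phase (middle) and of 20 mitosis genes (right); markers stand for libraries 1 to 3 and the line is the mean. WT ST1 library 2 is the lowest of its group in all 3 panels, and the mitosis sums labelled Bcl6KO start at 2819 CPM, above the highest WT value of 2422. Bcl6KO ST0 library 2 is the highest of its group in the left panel (760 CPM) and the lowest in the middle panel (2042 CPM).

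Genes that act in the transcription and processing of histone mRNA had medians nearer to 0 between genotypes than the mitosis genes. The median log2 fold change of 22 such genes was 0.33 at ST0 and 0.00 at ST1 between genotypes, and -0.20 in WT and -0.16 in Bcl6KO between stages; none passed edgeR's test in any of the 7 contrasts. Slbp, which encodes the stem-loop binding protein, was at 58.3, 73.3 and 144 CPM in WT ST0, 162, 121 and 111 in WT ST1, 128, 112 and 64.5 in Bcl6KO ST0 and 172, 116 and 107 in Bcl6KO ST1. Its genotypes overlapped at both stages, with log2 fold changes of 0.15 and 0.00. Cdk2, whose activity with cyclin E starts histone transcription through NPAT, was at 20.1 ± 7.66 CPM in WT ST0 and 29.6 ± 19.0 in Bcl6KO ST0. Tut4 and Lsm1, which act in the decay of histone mRNA, were at 134 ± 23.5 and 20.1 ± 10.7 CPM in WT ST0 and at 187 ± 64.2 and 52.1 ± 54.6 CPM in Bcl6KO ST0 (SD, n = 3).

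The medians of replication-independent variants and of chaperones were also nearer to 0 between genotypes. Of 11 variant genes, 9 passed the filter; their median log2 fold change between genotypes was -0.04 at ST0 and 0.49 at ST1, and none passed edgeR's test in any of the 7 contrasts. H3f3a, which encodes the H3.3 variant, was at 456 ± 192 CPM in WT ST0 and 315 ± 40.7 in Bcl6KO ST0. H2afy, which encodes macroH2A1, was at 155 ± 40.7 and 149 ± 74.2 CPM, and H1f0, a linker histone variant, at 23.1 ± 20.6 and 51.3 ± 38.3 CPM in these groups. H1f0 was higher at ST1, at 91.3 ± 29.2 CPM in WT and 162 ± 57.2 in Bcl6KO (stage effect adjusted p = 0.055 with edgeR). The 22 chaperone genes had medians of 0.17 and 0.15 between genotypes at ST0 and ST1, and none passed edgeR's test in any of the 7 contrasts. Nap1l1, a chaperone of H2A and H2B, was at 193 ± 16.2 CPM in WT ST0 and 227 ± 42.3 in Bcl6KO ST0, Ssrp1, of the FACT complex, at 72.1 ± 32.8 and 194 ± 119, Ubn1, of the HIRA complex, at 106 ± 8.35 and 142 ± 26.1, and Ipo4, an importin of histones, at 30.4 ± 22.5 and 285 ± 460 (SD, n = 3).

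Markers of other cells were measured beside these results. The 8 iNKT cell markers summed to between 3518 and 6018 CPM in every library. Double-positive thymocyte markers summed to 500 to 1472 CPM in the 6 ST0 libraries and to 17.9 to 71.6 CPM in the 6 ST1 libraries, and within ST0 the genotypes overlapped. This list includes Cd24a, the gene of CD24, by which the stages were sorted, so the sort sets part of its stage difference. B cell markers summed to 28 to 177 CPM, myeloid markers to 10.6 to 97.9, dendritic cell markers to 64.2 to 172, erythroid markers to 0 to 23.2 and thymic epithelial markers to 25.3 to 80.1, each overlapping between genotypes at ST0. At ST1 the sums of 3 of these lists did not overlap and were higher in the libraries labelled Bcl6KO. Double-positive thymocyte markers were at 17.9 to 26.1 CPM in WT and 31.6 to 71.6 in Bcl6KO, dendritic cell markers at 64.2 to 77.6 and 83.6 to 131, and thymic epithelial markers at 25.3 to 27.7 and 31.4 to 36.4. Single genes of these lists did not all go with the sums. Of 8 double-positive genes tested, 5 had a positive log2 fold change and 3 a negative one (-4.32 to 5.98). Of 2 thymic epithelial genes tested, 1 was at 0.47 and 1 at -3.97, and the 2 dendritic genes tested were positive. Cd14, Mpo, S100a8, Hba-a1, Hba-a2, Krt5 and Krt8 had no count in any library. The part of other cells, of Sp100 and of the lower number of genes detected in the histone levels was not tested.

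The promoters of the histone genes were compared as well. RefSeq promoters (GRCm38.p6, 250 bases before to 50 after the start) were matched for 60 of 65 genes. The CCAAT box, searched as CCAAT on both strands, was in every matched promoter of H1 (6), H2A (18), H2B (14) and H3 (10) and in 3 of 12 H4 promoters, against 37.9% of 27025 promoters. The TATA box, searched as TATAAA on both strands, was in 35 of 60 against 14.2%. The octamer bound by Oct1, searched as ATTTGCAT on both strands, was in 7 of 18 H2A and 5 of 14 H2B promoters and in none of the other classes, against 1.75%. None of the 3 motifs contains another. The promoter of Hist1h2bl, the most abundant gene per kilobase, is shown with its CCAAT boxes of either strand in capitals (chr13:21716134-21716433, minus strand, RefSeq name H2bc13).

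Hist1h2bl: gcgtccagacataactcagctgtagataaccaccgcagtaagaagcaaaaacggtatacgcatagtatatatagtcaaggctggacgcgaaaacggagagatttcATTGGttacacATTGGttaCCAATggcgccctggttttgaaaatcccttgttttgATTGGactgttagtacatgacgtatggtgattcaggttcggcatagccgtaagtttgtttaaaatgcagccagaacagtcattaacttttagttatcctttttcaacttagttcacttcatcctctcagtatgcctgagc

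Hist1h2bl lies head to head with Hist1h2ai, with 279 bases between their starts. There were 12 such H2A and H2B pairs, 176 to 306 bases apart, so the promoter windows of a pair overlap and a match can count for both genes. A match is a description of the letters and does not show that a factor binds there.

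**Figure D5:**
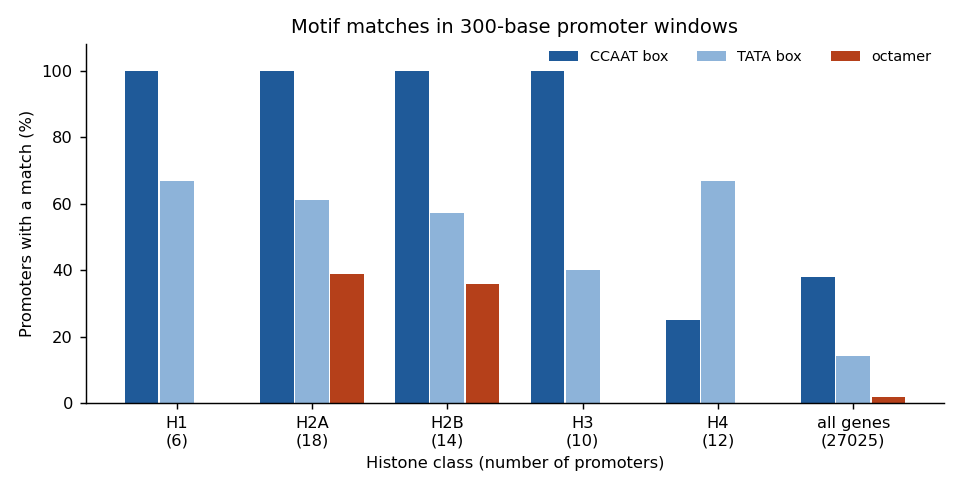
Percent of RefSeq promoter windows with a match to the CCAAT box, the TATA box or the octamer, by histone class and over all genes; the number of promoters is in brackets. All promoters of H1, H2A, H2B and H3 hold a CCAAT box against 25% of H4, and the octamer appears in H2A (38.9%) and H2B (35.7%) only among the histone classes.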

How the data were processed

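RNA of 12 libraries in 4 groups of 3 was analysed, grouped by the genotype, stage and number in the sample titles. The values are raw counts per gene as deposited, 1 file per library. The submitters' processing notes name mm10 as the build and the tools TopHat2, Bowtie2, DESeq and bcl2fastq. For versions, counting program, annotation, strand setting and reads that map to several places, the answer is not given in the sources used here. Because histone copies are nearly identical, that treatment decides how reads are shared among them. Of 48672 gene IDs, 48312 matched GENCODE M21, which gave symbols, coordinates and coding sequences; promoters came from RefSeq. Chromatin accessibility libraries were not used here.

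The histone genes and lists were chosen with earlier results of these data known. Counts were fitted with edgeR 4.0.16 in R 4.3.3 (limma 3.58.1): filterByExpr by group kept 15704 genes, TMM scaling, robust quasi-likelihood fit over 12 libraries with 1 mean per group (8 residual degrees of freedom), two-sided F-test for 7 contrasts, Benjamini-Hochberg adjustment over all genes tested, threshold 0.05. The SE came from the fold change and its F (log2 scale, ratio to the root of F). The fit was tested on simulated data. Levels are CPM, relative to the TMM-scaled total, and per kilobase of annotated exon where genes are compared. A count of 0 allows up to 3 counts, 0.566 to 0.612 CPM, which covers counting error only. Replicates differed by more than sampling noise (chi-square per gene 27.6 to 170). Alternatives were DESeq2 1.42.0, other scalings and filters, fits of 2 groups, a replicate block and leaving out each library. Named were, per class, the 3 genes highest per kilobase; per contrast, the 3 lowest p-values in each direction; per list, the genes past the test or else the 2 lowest p-values of each stage contrast. Others were named after their values were seen.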

Additional observations from a re-analysis of the deposited data

How the results depend on the processing

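The common biological coefficient of variation was 0.835, which limits what 3 libraries a group can show. Of the alternatives, 311 values of the main results stayed within the spread of the main value or within 1.5 times of a count, and 15 did not. Among values outside the main results, 79 stayed and 65 did not. At ST0 between genotypes, histone genes past the test numbered 0 with edgeR, 12 without the low-count filter and 21 with DESeq2; for the genotype effect averaged over stages the numbers were 0, 14 and 26. Leaving out 1 library gave 0 to 12 in both, with 12 (the linked Hist1 H2A genes) without Bcl6KO ST0 replicate 1, and 0 to 0 in the other 5 contrasts. Among all genes, leaving out 1 library gave 0 to 133 calls at ST0 between genotypes and 0 to 62 for the genotype effect. The share of all genes called without the low-count filter is not given here.

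Without scaling factors the median histone log2 fold change fell to 1.26 at ST0 between genotypes and rose to 0.59 between the Bcl6KO stages, while the median of all genes moved to -0.46 and 0.50, so the histone median relative to all genes was 1.72 and 0.09. With 1 value per linked group the ST0 median was 1.36, and the summed levels were 162, 232, 520 and 501 CPM in WT ST0, WT ST1, Bcl6KO ST0 and Bcl6KO ST1. Over single libraries left out, the medians ranged from 1.505 to 2.02 (ST0 between genotypes), 0.85 to 1.30 (ST1), 0.58 to 1.04 (WT stages), -0.38 to 0.32 (Bcl6KO stages), 1.31 to 1.71 (genotype), 0.16 to 0.53 (stage) and -1.21 to -0.40 (difference of genotype effects). The Bcl6KO stage median was below 0 without Bcl6KO ST0 replicate 1 (-0.08) and without Bcl6KO ST1 replicate 2 (-0.38), which also gave the lowest difference of genotype effects.

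A replicate block left 0 histone genes past the test in all 7 contrasts and gave a Bcl6KO stage median of -0.01. The labels do not say that the numbers pair libraries, and the correlations of deviations were -0.075 to 0.120 for equal numbers and -0.227 to 0.160 for unequal ones. Over all genes, calls ranged with the setting from 0 to 950 for the genotypes at ST0, 0 to 20 at ST1, 20 to 376 for the WT stages, 3 to 1309 for the Bcl6KO stages, 193 to 1495 for the stage effect, 0 to 450 for the genotype effect and 0 to 130 for the difference.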
